A study of Homo sapiens with 6 samples.

Results

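RNA pol II occupancy was examined at 9 complement genes, C3, C5, C1R, C1S, CFB, CFI, C8G, C4BPA and MASP1, in HepG2 cells with and without the tyrosine phosphatase SHP-1. The members are the called ChIP-seq regions whose assigned gene is one of these 9, and they number 267 of the 271336 regions in 4 lists. HepG2 is a human line derived from a liver tumour, and liver cells make most of the complement proteins found in blood. SHP-1 WT cells are labelled as CRISPR control cells, SHP-1 KO cells are CRISPR knockout cells for PTPN6, the gene that encodes SHP-1, and both were left untreated. Both came from single-cell cultures according to the methods, so each may stand for 1 clone, and which clone or guide was used for ChIP-seq is not given in the sources used here. One antibody recognised RPB1, the largest subunit of RNA pol II, and the other recognised RPB1 phosphorylated on serine 2 of its C-terminal repeats (phospho-Ser2 RPB1). There was 1 library per antibody and cell type, so the comparisons have no replicate check and carry no test, and clone, library and genotype cannot be told apart. The 2 input libraries were not analysed here.

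Complement is a cascade of blood proteins that marks and lyses foreign cells. C1R and C1S are the proteases of the classical pathway, MASP1 encodes a protease of the lectin pathway, and CFB provides the protease of the alternative pathway. All of them lead to cleavage of C3, the central and most abundant component. C5 and the gamma chain of C8, encoded by C8G, belong to the terminal pathway that builds the membrane attack complex. CFI, a protease that degrades C3b and C4b, and C4BPA, the alpha chain of the C4b-binding protein, restrain the cascade. Total RPB1 marks all engaged RNA pol II and is typically densest at the start of a gene, while phospho-Ser2 RPB1 marks elongating RNA pol II and typically accumulates towards the 3′ end.

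The value given for each region is its fold enrichment over input at the summit, and its rank is counted from the highest fold enrichment in the list. Fold enrichments of the 2 antibodies are on different scales and were not set against each other. The complement genes held 46 of 46045 regions in the RPB1 list of SHP-1 WT cells (8 genes), 49 of 41605 in that of SHP-1 KO cells (7 genes), 103 of 102674 in the phospho-Ser2 RPB1 list of SHP-1 WT cells (8 genes) and 69 of 81012 in that of SHP-1 KO cells (8 genes). The SHP-1 KO lists were shorter, and the strongest region of a gene was weaker there at the median over genes, while the median over all regions of a list was not lower, at 5.62 against 5.51 in SHP-1 WT cells for RPB1 and 3.80 against 3.69 for phospho-Ser2 RPB1. The median SHP-1 KO to SHP-1 WT ratio of the highest fold enrichment per gene was 0.742 over 12877 genes for RPB1 and 0.936 over 10870 genes for phospho-Ser2 RPB1, and that of the length covered by regions was 0.860 and 0.800. Ratios over all regions assigned to a gene are therefore given beside these medians or beside the share of genes with a lower ratio. Read depth is unknown from the lists, and its part in these differences was not tested. PTPN6 itself had 3 RPB1 regions in SHP-1 WT cells (highest 24.0) and 1 in SHP-1 KO cells (17.2), with 1 phospho-Ser2 region in each (4.03 and 5.24), which does not check a knockout made by a small change in sequence. All 8 hepatocyte marker genes examined had an RPB1 region in SHP-1 WT cells and 7 of 8 in SHP-1 KO cells, where APOA1 had none, and all 8 had a phospho-Ser2 region in both. Among markers of other cell types, LYZ and PECAM1 had a region in every list, with fold enrichments up to 39.2.

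Assignment to a gene did not always mean position on that gene. The lists give a nearest gene for each region, and 195 of the 267 regions overlapped the representative (MANE Select) transcript of their gene, while 72 did not. Of 108 regions annotated as promoter, 27 lay within 1 kb of the start of that transcript, since internal starts of other isoforms count as promoters too. C3, C5, CFB, CFI, C8G and MASP1 each had regions on the transcript itself. None of the 267 regions, nor any other region of the lists, overlapped the transcripts of C1R, C1S or C4BPA.

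**Figure D1:**
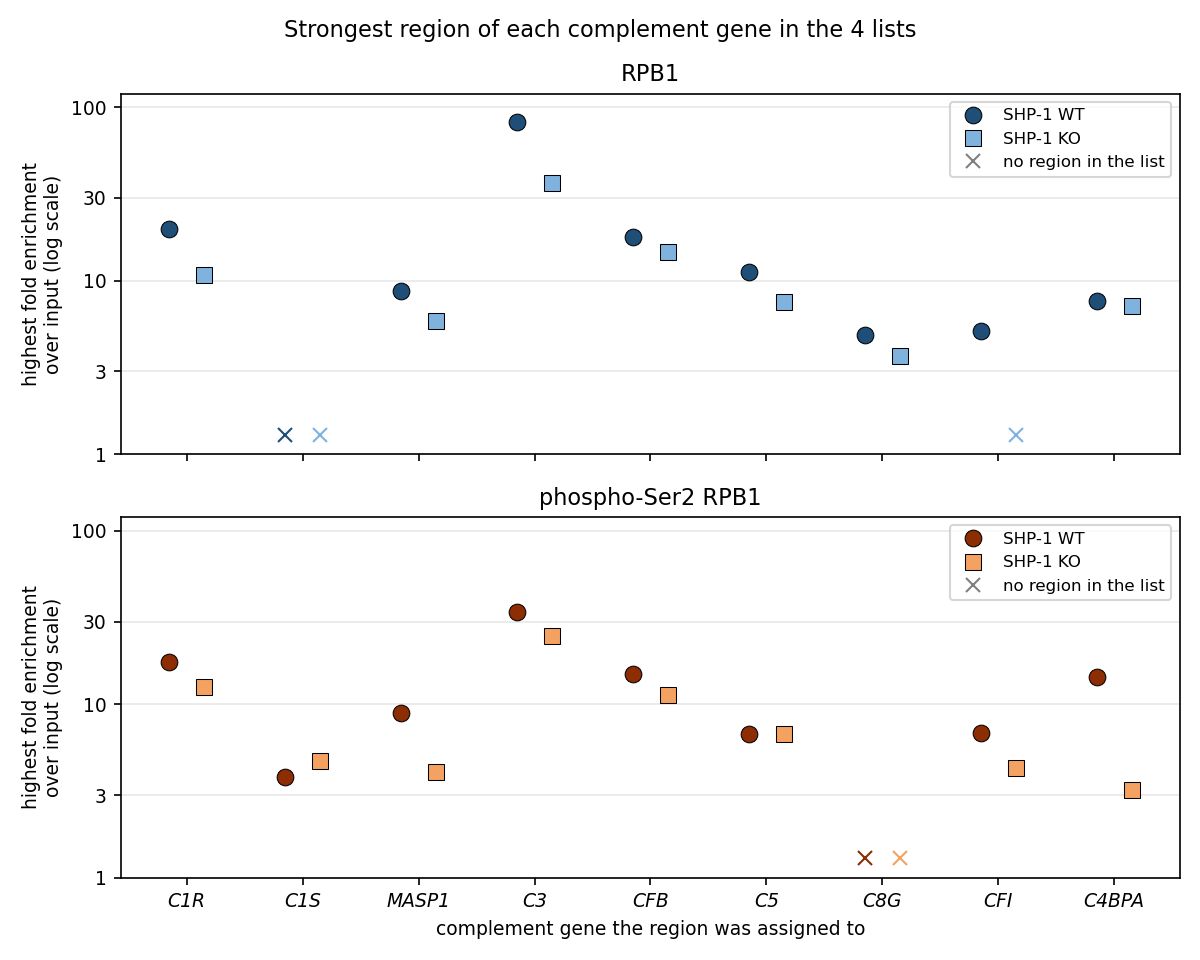
Highest fold enrichment over input (log scale) among the regions assigned to each complement gene, for RPB1 (upper panel) and phospho-Ser2 RPB1 (lower panel), with circles for SHP-1 WT, squares for SHP-1 KO and crosses for a gene without a region in that list; each symbol is 1 library. Of the 9 genes, C3 had the highest value in every list, 81.8 (SHP-1 WT) and 36.7 (SHP-1 KO) for RPB1 and 33.9 and 24.9 for phospho-Ser2 RPB1.

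Of the 9 genes, C3 had the highest fold enrichment with either antibody. Its transcript lies on the minus strand of chromosome 19 (chr19:6677704-6720650, hg38) and is 42.9 kb long with 41 exons. In SHP-1 WT cells, a single RPB1 region of 19461 bp (chr19:6701674-6721134) covered the start and the 5′ part of the gene, with a fold enrichment of 81.8 and rank 159 in the list. In SHP-1 KO cells, the corresponding region was 11533 bp long (chr19:6709457-6720989), with a fold enrichment of 36.7 and rank 1755. Both summits lay in exon 1, at 63 and 81 bp from the start. The SHP-1 KO to SHP-1 WT ratio was 0.448, below the median of 0.742 over all genes, and 5.90% of the 12877 genes had a lower ratio. Regions of other genes within 1 Mb of C3 were also fewer in SHP-1 KO cells, with a ratio of 0.772 for RPB1 (167 and 129 regions) against 0.904 for the whole list, and of 0.557 for phospho-Ser2 RPB1 (183 and 102) against 0.789. Their part in the C3 values was not tested. RPB1 regions covered 86.1% of the C3 transcript with SHP-1 and 58.5% without it.

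Phospho-Ser2 RPB1 lay over nearly the whole of C3 in SHP-1 WT cells. Regions covered 95.9% of the transcript there and 80.7% in SHP-1 KO cells. The strongest region had a fold enrichment of 33.9 in SHP-1 WT cells, rank 15 of 102674 (chr19:6700829-6720798, 19970 bp), and of 24.9 in SHP-1 KO cells, rank 53 of 81012 (chr19:6713864-6717727, 3864 bp). The ratio was 0.733, against a median of 0.936, and 18.7% of the 10870 genes had a lower one. Its summit lay 5.64 kb into the gene in SHP-1 WT cells and 5.60 kb in SHP-1 KO cells, the former being at 13.1% of the transcript length. Over all transcripts with a phospho-Ser2 region, the strongest region lay at a median of 84.4% of the length in SHP-1 WT cells and 83.7% in SHP-1 KO cells. The strongest phospho-Ser2 region on the C3 transcript thus lay nearer to the start than the median. A stronger region lay just beyond the C3 end, 44.6 to 52.2 kb from the C3 start, and was assigned to TNFSF14. Its fold enrichment was 48.0 in SHP-1 WT cells, and regions in this stretch reached 16.2 in SHP-1 KO cells. How much of this signal belonged to each gene was not tested.

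The number of C3 regions moved opposite to the length they covered. RPB1 regions numbered 26 in SHP-1 WT cells and 34 in SHP-1 KO cells, while the bases covered were 45108 and 29753. Phospho-Ser2 regions numbered 10 and 36, while the bases covered were 43804 and 36851. The ratios of covered length were 0.660 for RPB1 and 0.841 for phospho-Ser2 RPB1, and 23.6% and 54.9% of genes had a lower one. The 19970-bp phospho-Ser2 region of SHP-1 WT cells was met by 15 separate regions in SHP-1 KO cells, which together covered 81.3% of it. The 19461-bp RPB1 region was met by 7, which covered 92.3% of it. The higher region count at C3 in SHP-1 KO cells thus went with a stretch called in pieces, and not with a longer one. At the 3′ end, within 1 kb of the transcript end, the highest RPB1 fold enrichment was 13.5 in SHP-1 WT and 6.34 in SHP-1 KO cells, and that of phospho-Ser2 RPB1 was 10.1 and 5.97.

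**Figure D2:**
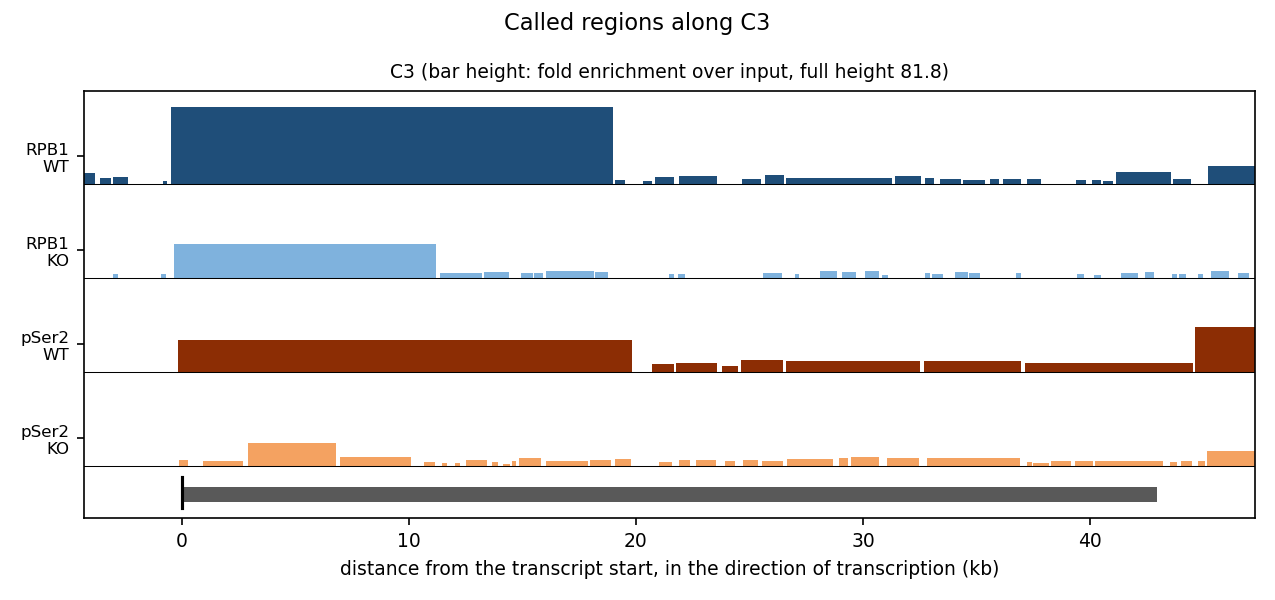
Called regions along C3, plotted against the distance from the transcript start in kb in the direction of transcription, with 1 track per list; the width of a bar is the length of the region, its height the fold enrichment over input, and the grey bar the transcript. The RPB1 region at the start measured 19461 bp in SHP-1 WT cells and 11533 bp without SHP-1, and the 19970-bp phospho-Ser2 region was split into 15 in SHP-1 KO cells.

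CFB, which encodes factor B, was occupied over its entire short transcript in both cell types. It lies on the plus strand (chr6:31946095-31952084, 5.99 kb, 18 exons). RPB1 regions covered 100% of it in SHP-1 WT and 98.9% in SHP-1 KO cells, with a highest fold enrichment of 17.8 and 14.6 and summits 55 and 35 bp from the start. Phospho-Ser2 regions covered 97.8% and 100%, with a highest fold enrichment of 14.9 and 11.3. The ratios of 0.823 and 0.761 were both within 1.5-fold, and 62.9% and 22.5% of genes had a lower one. The strongest phospho-Ser2 summit lay 4.84 kb from the start in SHP-1 WT cells (exon 14) and 3.13 kb in SHP-1 KO cells. Neighbouring genes share these regions. The 10270-bp RPB1 region of SHP-1 WT cells (chr6:31945332-31955601) ran past the end of CFB into NELFE, which is transcribed towards it, and a further RPB1 region assigned to CFB lay 18.4 kb before its start, at the start of C2, with a fold enrichment of 14.6 in SHP-1 WT and 6.54 in SHP-1 KO cells. How much of the signal belonged to each of these genes was not tested.

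The window before the CFB start held 2 of the 4 motifs searched, and both are shown because they lie under the RPB1 region of both cell types. The letters are from RefSeq (GRCh38.p14, plus strand, at most 30 bases since this stretch is annotated as UTR), with the motif in capitals. The motif of STAT factors, TTCNNNGAA, matched at positions −92 to −84 from the start and the TATA box, TATAAA, at −30 to −25.
CFB STAT motif, chr6:31945992-31946021: ccgcttggatgTTCCGGGAAagtgatgtgg
CFB TATA box, chr6:31946053-31946082: gaacacagattgTATAAAaggctgggggct
Of 35116 promoter windows of the same length, 7.66% held TTCNNNGAA and 11.5% held TATAAA on either strand. The other motifs searched were TTGCNNAA for C/EBP factors, held by 10.5%, and GGANTTTCC for NF-kB, held by 1.64%. At C1R, TTGCNNAA matched at −106 to −99 of the transcript start, and in the window of another start TTCNNNGAA matched at −86 to −78 and TTGCNNAA at −167 to −160. No motif matched at MASP1 or C4BPA. A match describes these letters and not binding. Promoter entries matched 6 of the 9 genes, and C3, C1S and C8G had none.

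The 3 initiating proteases differed in what could be read at the gene itself. C1R (chr12:7080219-7092445, minus strand) and C1S (chr12:7060718-7071032, plus strand) had no region of either antibody on their transcripts in either cell type. The 20 regions assigned to C1R all lay before its start and overlapped C1RL, the neighbouring gene upstream on the same strand (chr12:7089587-7109238 for the whole gene). Of the 20, 17 overlapped the MANE Select transcript of C1RL. The strongest of them with RPB1 was at chr12:7093609-7094572 in SHP-1 WT cells (19.9, rank 8541) and at chr12:7093826-7095797 in SHP-1 KO cells (10.8, rank 10562), a ratio of 0.545. A lower ratio was held by 15.9% of genes. The region nearest to the start went the other way, from 4.23 in SHP-1 WT to 5.22 in SHP-1 KO cells. Restricted to regions annotated as promoter, the highest values were 4.23 and 5.28, and the ratio was 1.25. With phospho-Ser2 RPB1, 1 region of 4218 bp in SHP-1 WT cells (17.4, rank 346) and 1 of 4354 bp in SHP-1 KO cells (12.6, rank 844) covered the same stretch, beginning 729 and 1073 bp before the C1R start.

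C1S had no RPB1 region in either list. Its 6 phospho-Ser2 regions in SHP-1 WT cells (highest 3.81, rank 44703) and 2 in SHP-1 KO cells (highest 4.71, rank 18177) lay between 72.9 and 58.6 kb before its transcript and all 8 lay within LPCAT3, which encodes a phospholipid-remodelling acyltransferase (chr12:6976185-7018476). The annotated C1S gene begins before its MANE Select transcript, at chr12:6988259, so most of these regions also lay within its bounds. None of the 6 overlapped any of the 2, where 47.8% of phospho-Ser2 regions of SHP-1 WT cells and 30.1% of those of SHP-1 KO cells had no overlap in the whole lists. The C1S and C1R transcripts lie 99.4 and 119 kb beyond the end of PTPN6, the edited gene, on the same chromosome.

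**Figure D3:**
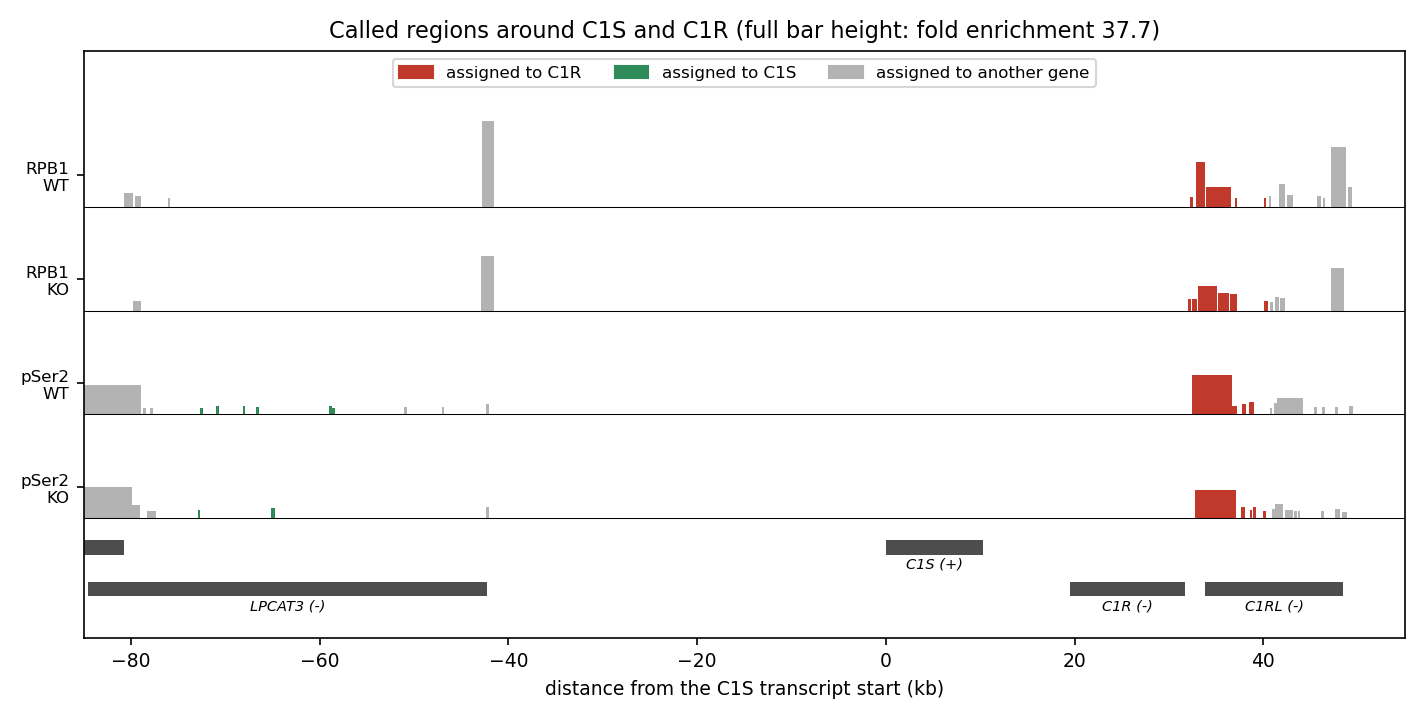
Called regions around C1S and C1R, plotted against the distance from the C1S transcript start in kb, with 1 track per list, bar height as fold enrichment over input, red for regions assigned to C1R, green for C1S and grey for other genes, and the transcripts with their strand underneath. The stretch over the C1S and C1R transcripts was empty in all 4 lists. The assigned regions lay over the LPCAT3 transcript, over the C1RL transcript, or between the C1R and C1RL transcripts.

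MASP1 kept an RPB1 region at its start and had few others in SHP-1 KO cells. The transcript lies on the minus strand (chr3:187234082-187291737, 57.7 kb, 11 exons). The annotated gene runs on past the end of this transcript (chr3:187217282-187291980), and the covered shares given here are of the transcript alone. RPB1 at the start had a fold enrichment of 8.74 in SHP-1 WT cells (chr3:187291541-187292130, rank 14103) and 5.83 in SHP-1 KO cells (chr3:187291623-187292017, rank 19062), a ratio of 0.667 and just within 1.5-fold. A lower ratio was held by 36.1% of genes. The 5 further RPB1 regions of SHP-1 WT cells, from 4.01 to 7.51, had no overlap in SHP-1 KO cells, as had 38.1% of the whole list. Phospho-Ser2 regions numbered 21 in SHP-1 WT and 2 in SHP-1 KO cells and covered 21.7% and 1.14% of the transcript. The strongest, 4465 bp long in SHP-1 WT cells (chr3:187243362-187247826, 8.89, rank 2873, summit 46.1 kb into the gene), was met in SHP-1 KO cells by a single 200-bp region with a fold enrichment of 3.44, covering 4.48% of it. The ratio of covered length was 0.0498, against a median of 0.800, and 0.221% of the 10870 genes had a lower one. The 21 regions of SHP-1 WT cells had a median fold enrichment of 3.72, close to the median of 3.69 over the whole list. Within 1 Mb on either side of MASP1, phospho-Ser2 regions of other genes numbered 79 and 74, a ratio of 0.937, and RPB1 regions 51 and 51.

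Of the terminal components, C5 had RPB1 on its MANE Select transcript at the start alone. The transcript lies on the minus strand (chr9:120952335-121050275, 97.9 kb, 41 exons). The annotated gene is longer (chr9:120932987-121075195) and has another promoter entry upstream (chr9:121074866-121075115). The region at the start had a fold enrichment of 11.2 in SHP-1 WT cells (chr9:121049950-121050735, 786 bp, rank 12017) and 7.53 in SHP-1 KO cells (chr9:121050048-121050486, 439 bp, rank 14098), a ratio of 0.671. A lower ratio was held by 36.9% of genes. With regions from 3 kb upstream to the gene end, the RPB1 ratio was 0.996 for the highest fold enrichment. For RPB1-covered length it was 0.739, against 0.559 with assigned regions. Phospho-Ser2 RPB1 was spread over the gene in short regions. They numbered 40 in SHP-1 WT and 19 in SHP-1 KO cells and covered 13.3% and 6.31% of the transcript. Over all assigned regions, the phospho-Ser2 ratio was 0.539 for covered length, and 24.5% of genes had a lower one. For the highest fold enrichment it was 0.997, and 59.1% had a lower one. In both cell types the regions on the transcript lay mainly in the 3′ part, with 80.9% and 79.3% of the covered bases beyond 50% of the length. A stretch downstream of the transcript end, but within the annotated gene, held regions in both. Fold enrichments there reached 6.32 (chr9:120944599-120950095) in SHP-1 WT cells and 6.71 (chr9:120946510-120949625) in SHP-1 KO cells. A phospho-Ser2 region over the start was called in SHP-1 WT cells only (chr9:121050085-121050378, 6.73, rank 6603). Phospho-Ser2 regions of other genes within 1 Mb of C5 also differed, at 119 in SHP-1 WT and 50 in the SHP-1 KO list, a ratio of 0.420 against 0.789 for the whole list. The part of this wider difference in the C5 values was not tested.

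The bases before the C5 start are shown with those inside this phospho-Ser2 region in capitals (RefSeq, GRCh38.p14, minus strand, 5′ to 3′, 103 of 120 bases).
C5, chr9:121050276-121050395: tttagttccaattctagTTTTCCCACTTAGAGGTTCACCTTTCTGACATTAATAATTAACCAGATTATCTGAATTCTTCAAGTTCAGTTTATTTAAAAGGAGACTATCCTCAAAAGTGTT
None of the 4 motifs matched within the window of 250 bases before and 50 after this start.

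C8G is a short gene between strongly occupied neighbours (chr9:136945243-136946975, plus strand, 1.73 kb, 7 exons). It had 2 weak RPB1 regions in SHP-1 WT cells (4.89 and 4.51, ranks 29038 and 31745) and 1 in SHP-1 KO cells (3.67, rank 38940), a ratio of 0.751 for the highest, and no phospho-Ser2 region in either. For the highest value, 51.4% of genes had a lower ratio. The bases covered were 888 and 200, a ratio of 0.225, and 1.55% of genes had a lower one. A region assigned to FBXW5 with a fold enrichment of 45.8 extended 0.370 kb into C8G in SHP-1 WT cells. In SHP-1 KO cells the corresponding FBXW5 region, with a fold enrichment of 29.6, ended 0.165 kb before the C8G start. Beyond the C8G end, regions assigned to LCN12 reached 48.2 in SHP-1 WT and 38.7 in SHP-1 KO cells. Signal of C8G and of these neighbours cannot be told apart at this distance.

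**Figure D4:**
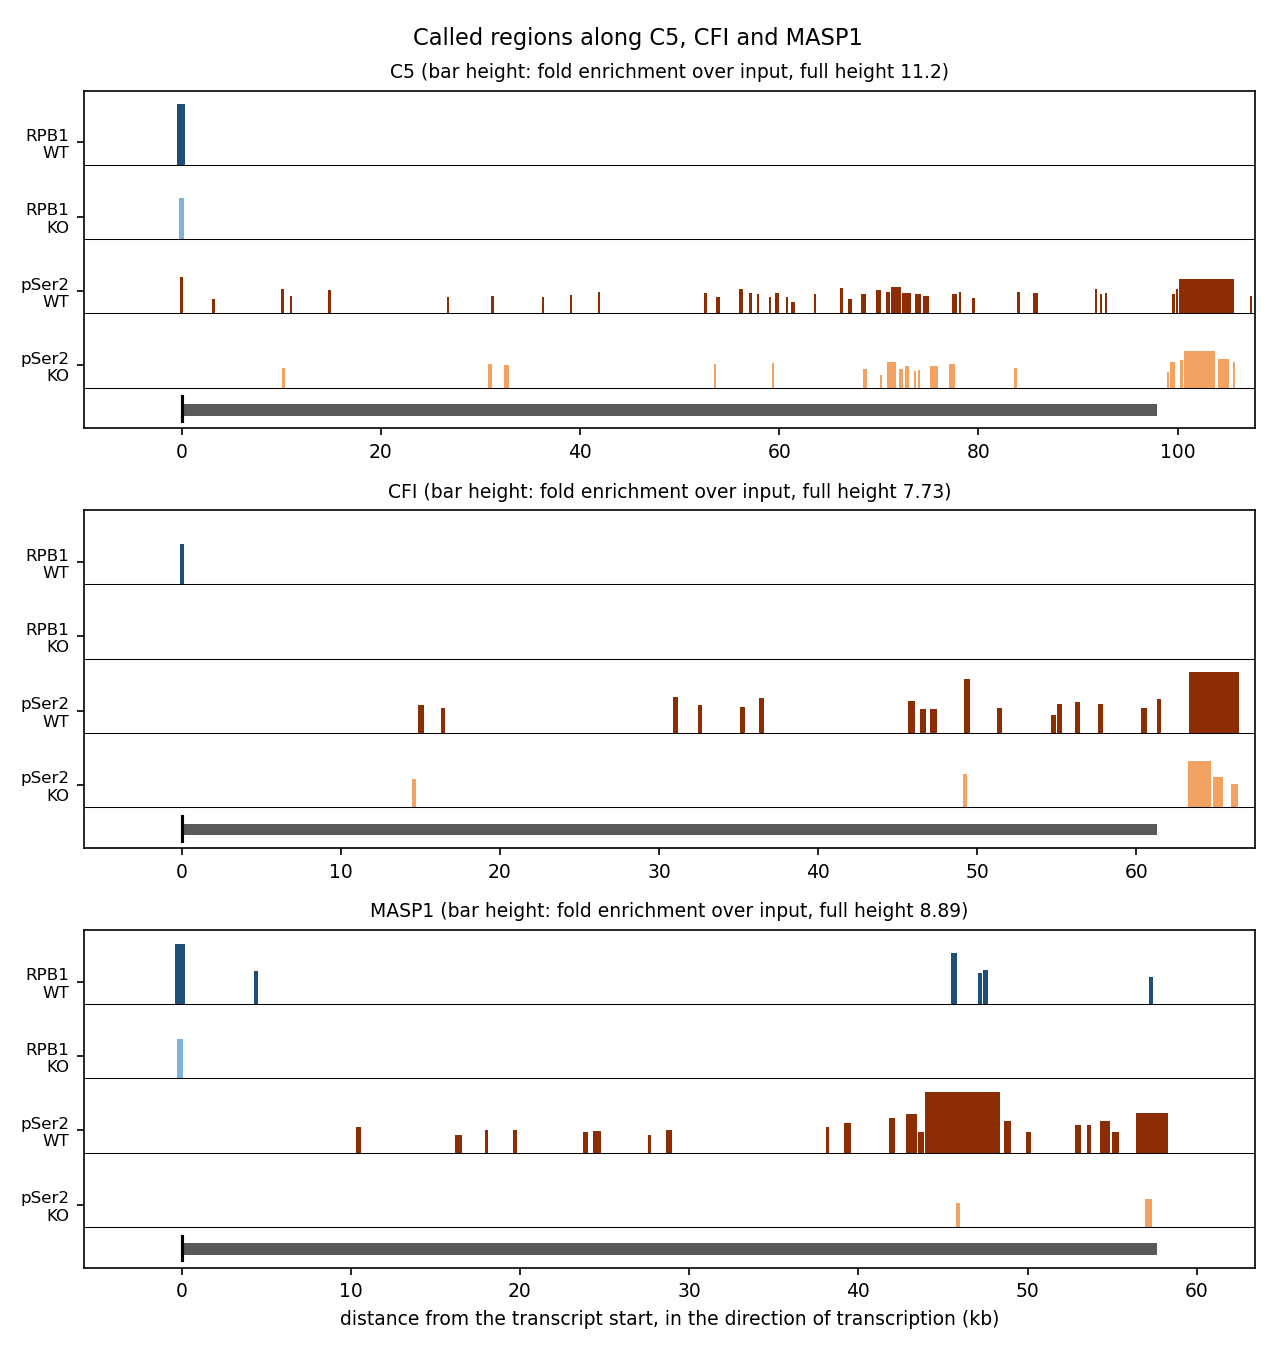
Called regions along C5, CFI and MASP1, plotted against the distance from each transcript start in kb in the direction of transcription, with 1 track per list, bar height as fold enrichment over input scaled within each gene, and the transcript in grey. Phospho-Ser2 regions covered 13.3%, 8.95% and 21.7% of the transcripts in SHP-1 WT cells and 6.31%, 0.723% and 1.14% in SHP-1 KO cells.

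Among the regulators, CFI was the only one of the 9 genes whose RPB1 region was absent from the SHP-1 KO list. The transcript lies on the minus strand (chr4:109740695-109801999, 61.3 kb, 13 exons). Its RPB1 region (chr4:109801814-109802109, 296 bp) had a fold enrichment of 5.12, rank 25956 of 46045, and a −log10 q-value of 8.39. It covered 110 of the 120 bases before the start, which are in capitals here (RefSeq, GRCh38.p14, minus strand, 5′ to 3′).
CFI, chr4:109802000-109802119: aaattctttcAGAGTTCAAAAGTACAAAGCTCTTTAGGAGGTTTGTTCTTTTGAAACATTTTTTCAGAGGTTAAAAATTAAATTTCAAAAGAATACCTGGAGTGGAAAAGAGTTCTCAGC
None of the 4 motifs matched within its window either.

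Phospho-Ser2 regions on CFI numbered 17 in SHP-1 WT and 2 in SHP-1 KO cells. In SHP-1 WT cells they covered 8.95% of the transcript, with 88.1% of the covered bases beyond 50% of its length, and in SHP-1 KO cells they covered 0.723%. The strongest lay at the same place in both, 49.3 kb from the start, with fold enrichments of 6.86 (chr4:109752455-109752851, rank 6096) and 4.27 (chr4:109752639-109752867, rank 27243), a ratio of 0.623. For the highest value, 8.26% of genes had a lower ratio. The ratio of covered length was 0.0773, and 0.524% of genes had a lower one. It was 0.184 with regions of a −log10 q-value of at least 5 alone, and 0.329 with regions from 3 kb upstream to the gene end, an interval that runs past the transcript towards PLA2G12A. The 17 regions were short, at most 445 bp, and had a median fold enrichment of 3.58, close to the median of 3.69 over the whole list. Within 1 Mb, phospho-Ser2 regions outside CFI numbered 31 and 29. The neighbouring PLA2G12A, a secreted phospholipase gene, had phospho-Ser2 regions just beyond the CFI end in both cell types, with fold enrichments up to 7.73 and 5.87.

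C4BPA had the lowest phospho-Ser2 ratio of the complement genes, and this rested on assignment. The highest fold enrichment assigned to it was 14.4 in SHP-1 WT cells (chr1:207099981-207102247, 2267 bp, rank 670) and 3.23 in SHP-1 KO cells, a ratio of 0.225, and 0.0460% of genes had a lower one. The SHP-1 WT region did not lie on C4BPA (chr1:207104233-207144972, plus strand) but just beyond the end of C4BPB, the gene of the beta chain, which ends 4.24 kb before C4BPA. In SHP-1 KO cells a region with a fold enrichment of 11.0, rank 1307, was called within the same stretch (chr1:207100305-207101144) and was assigned to C4BPB. Set against each other by position, these values gave a ratio of 0.763. The highest RPB1 values assigned to C4BPA were 7.63 and 7.17, a ratio of 0.939, from a region 8.06 kb beyond its end in SHP-1 WT cells and one between the genes in SHP-1 KO cells. Over all genes, 76.9% had a ratio below 0.939. By position the direction differed. The region between the genes went from 3.92 in SHP-1 WT cells to 7.17 without SHP-1, and the region beyond the C4BPA end went from 7.63 to 5.83. With regions from 3 kb upstream to the gene end the ratio was 1.37.

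Counted over the complement genes, the direction of difference was mostly to lower values in SHP-1 KO cells, as at the median over all genes. The highest RPB1 fold enrichment was lower by over 1.5-fold in 2 of 7 genes (C3 and C1R), against 36.1% of all genes, and higher in 0, against 2.68%. RPB1-covered length was lower in 4 of 7 (C3, C5, C8G and MASP1), against 24.1%, and higher in 0, against 6%. For phospho-Ser2 RPB1, the highest fold enrichment was lower in 3 of 8 (CFI, C4BPA and MASP1), against 11.7%, and higher in 0, against 5.71%. Phospho-Ser2-covered length was lower in 5 of 8 (C5, C1S, CFI, C4BPA and MASP1), against 35.6%, and higher in 0, against 8.03%. The median ratios over the complement genes were 0.671 and 0.660 for RPB1 and 0.727 and 0.467 for phospho-Ser2 RPB1, for highest fold enrichment and covered length. CFI was the 1 of 8 genes with an RPB1 region in SHP-1 WT cells alone, against 9.09% of genes, and 0 of 7 had the reverse, against 4.32%. For phospho-Ser2 RPB1, 0 of 8 genes had a region in SHP-1 WT cells alone, against 14.7%, and 0 of 8 in SHP-1 KO cells alone, against 4.92%. Each of these counts rests on 7 or 8 genes, and C1R, C1S and C4BPA entered them without a region on their transcripts. By position, the phospho-Ser2 ratio of C4BPA was 0.763, within 1.5-fold. On the transcripts themselves, RPB1-covered length was lower by over 1.5-fold in 2 of 5 genes with RPB1 in both (C8G and MASP1), against 24.1% of all transcripts, and it went from 186 bp to 0 at CFI. Phospho-Ser2-covered length was lower in 3 of 5 (C5, CFI and MASP1), against 34.3%.

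**Figure D5:**
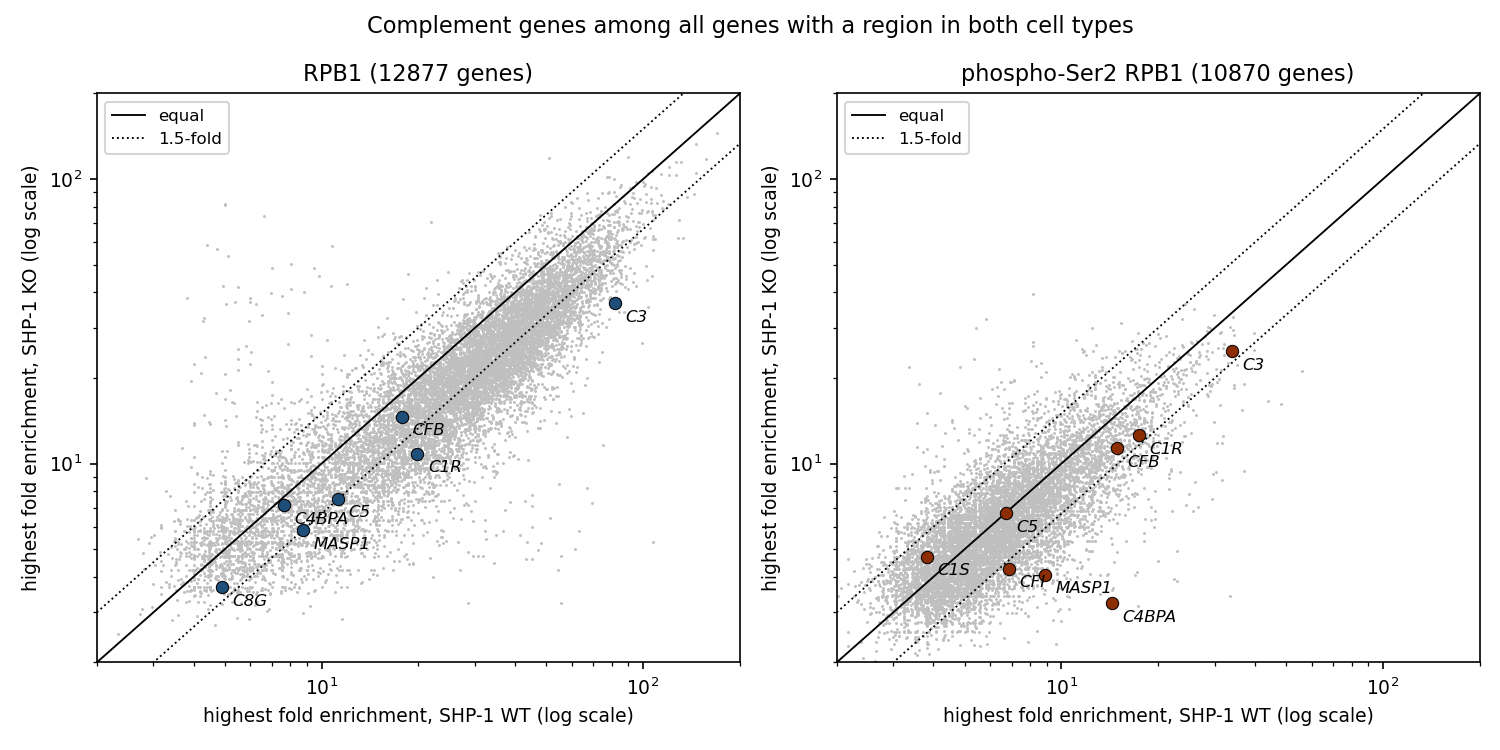
Highest fold enrichment per gene in SHP-1 KO against SHP-1 WT cells (log scales) for RPB1 (left, 12877 genes) and phospho-Ser2 RPB1 (right, 10870 genes), with all genes in grey, complement genes named, the solid line at equal values and dotted lines at 1.5-fold. C3 and C1R lay below the lower dotted line for RPB1, and CFI, MASP1 and C4BPA for phospho-Ser2 RPB1.

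Regions called in 1 cell type alone were weaker at the median than shared ones. Of the 46 RPB1 regions of SHP-1 WT cells, 30 overlapped a region of SHP-1 KO cells, and 16, or 34.8% (95% Wilson interval 22.7 to 49.2, counting error only), did not, against 38.1% of the whole list. Of the 49 of SHP-1 KO cells, 1 did not, or 2.04% (0.361 to 10.7), against 25.1%. Of the 103 phospho-Ser2 regions of SHP-1 WT cells, 72 did not overlap, or 69.9% (60.5 to 77.9), against 47.8%, and of the 69 of SHP-1 KO cells 11 did not, or 15.9% (9.14 to 26.3), against 30.1%. Regions of 1 gene are not independent, so the intervals are likely too narrow. Of the 72, 28 lay at C5, 19 at MASP1 and 16 at CFI. Of the regions of SHP-1 KO cells, 34 of the 49 for RPB1 and 36 of the 69 for phospho-Ser2 RPB1 lay at C3. Several of those at C3 met the same long region of SHP-1 WT cells, as described above. Median fold enrichment was 5.75 in the 31 phospho-Ser2 regions of SHP-1 WT cells with an overlap and 3.52 in the 72 without. For RPB1 these medians were 7.34 and 4.91. The same held over the whole lists, at 4.08 and 3.44 for phospho-Ser2 RPB1 and 8.35 and 4.51 for RPB1.

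Of the 6 genes with regions on their transcripts, the place of RNA pol II could be read at C3, C5, CFB, CFI and MASP1. At C8G the strongest RPB1 region on the transcript in SHP-1 WT cells was the one assigned to FBXW5, with its summit before the C8G start. Over all transcripts, the strongest RPB1 region lay at a median of 0.174% of the length in SHP-1 WT cells. It lay within 1% of the length from the start at C3, C5, CFB, CFI and MASP1 too. The bases covered by phospho-Ser2 RPB1 exceeded those covered by RPB1 by a median of 1.27-fold over 9361 transcripts with both in SHP-1 WT cells. At C3 and CFB the ratio was 1.11 and 0.978, since both marks covered nearly the whole gene. At C5 and CFI it was 40.0 and 29.5, with RPB1 called at the start alone. At MASP1 it was 8.02, with 70.6% of the RPB1-covered bases beyond 50% of the length.

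Of 40 further complement genes, 15 had an RPB1 region in SHP-1 WT and 14 in SHP-1 KO cells, and 12 and 11 had a phospho-Ser2 region. There was no region in any list for 22 of them. Among these were C1QA, C1QB and C1QC, which are made mainly by macrophages, and 6 of 8 receptor genes, which are found mainly on blood cells. C4A and C4B also had none, but these are near-identical copies and their reads may not map to 1 place. The membrane regulators, which protect the cells of the body from complement, had the highest RPB1 values in SHP-1 WT cells outside the 9. CD55 had 48.7 in SHP-1 WT and 47.8 in SHP-1 KO cells, CD59 had 48.2 and 36.4, and CD46 had 40.9 and 25.3. Of the other terminal components, C6 and C7 had no region, C8A had an RPB1 region in both cell types (4.99 and 5.02) and C8B had a single one, in SHP-1 WT cells alone (3.81). C8A (3.77), C8B (2.63) and C9 (3.05) had phospho-Ser2 regions in SHP-1 WT cells alone. C5AR1, a receptor of the C5a fragment, had an RPB1 region in SHP-1 WT cells alone (4.91), and FCN2, a recognition molecule of the lectin pathway, in SHP-1 KO cells alone (4.75). CFP, which encodes properdin, and CD55 had a phospho-Ser2 region in SHP-1 KO cells alone (4.28 and 3.06). The highest RPB1 value was lower by over 1.5-fold in 6 of 13 of these genes, against 36.1% of all genes, and higher in 0, against 2.68%. RPB1-covered length was lower in 2 of 13, against 24.1%. For phospho-Ser2 RPB1, covered length was lower in 4 of 9, against 35.6%, and higher in 1, CFD, against 8.03%. The highest phospho-Ser2 value was lower in 4 of 9, against 11.7%, and higher in 2, C4BPB and VTN, against 5.71%, the value of C4BPB being the region described above for C4BPA.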

How the data were processed

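HepG2 cells with SHP-1 (WT) or without it (KO) gave 1 ChIP-seq library each for RPB1 and for phospho-Ser2 RPB1. The authors ran Trimmomatic and BWA (hg38) within the MUGQIC pipeline, and MACS2 in its narrow mode on every library, with the matching input as control. Tool versions are not given in the sources used here. Each deposited region has a fold enrichment over input, which is a ratio, and its p-value and q-value as −log10. The authors also deposited for each region an integer score, its annotation and its nearest gene. A deposited table of differential RPB1 regions holds the fold changes and p-values of the authors' own comparison and was not used.

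Regions were ranked by fold enrichment within each list. Per gene, the highest fold enrichment and the bases covered were taken, and SHP-1 KO to SHP-1 WT ratios past 1.5-fold were counted over all genes with a region in both. Overlap meant at least 1 bp. Positions were set against MANE Select transcripts of GENCODE release 44 (hg38), and promoter letters came from RefSeq (GRCh38.p14). Computations, in Python 3.11.15 with SciPy 1.17.1 (intervals), NumPy 2.4.6 and pandas 2.3.3 (tables), were tested on simulated regions. With 1 library per group no test was possible. Depth is unknown, so precision is limited to counting error.

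Named were all 9 genes, those of 40 other complement genes with a region in 1 cell type alone, the 3 of these with the highest RPB1 value in SHP-1 WT cells, and PTPN6. VTN, C4BPB, CFD, C6 and C7 were named after their values were seen, as were neighbouring genes. The members and lists were chosen with earlier results of these data known. Alternatives were another q-value limit, gene interval, fold limit, scaling and overlap, and those on the MANE Select transcript, and the gene interval for genes with a region in 1 cell type alone, were chosen after seeing the data. Some items of the marker and gene lists are not reported here.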

Additional observations from a re-analysis of the deposited data

How the results depend on the processing

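Of 80 alternative values for the main results, 57 kept to within 1.5-fold or within their counting interval and 23 did not; of 101 for single genes, 92 did. With regions of a −log10 q-value of at least 5 only, phospho-Ser2 regions of SHP-1 WT cells numbered 40, complement genes with lower phospho-Ser2-covered length 2 and with higher RPB1-covered length 1, genes with a region in SHP-1 WT cells alone 2 for RPB1 and 1 for phospho-Ser2 RPB1, with 1 in SHP-1 KO cells alone for phospho-Ser2 RPB1, and 47.5% of phospho-Ser2 regions of SHP-1 WT cells were shared. Genes lower in highest RPB1 fold enrichment numbered 1 with promoter regions alone, with ratios divided by the median over all genes or past 2-fold, and 4 with regions from 3 kb upstream to the gene end, where 1 was higher in RPB1-covered length. Genes lower in RPB1-covered length numbered 2 past 2-fold. On the MANE Select transcript, chosen after seeing the data, RPB1 regions of SHP-1 KO cells numbered 29, and genes lower in covered length 2 for RPB1 and 3 for phospho-Ser2 RPB1. With a reciprocal overlap of 50%, 26.1% and 24.5% of RPB1 and 11.7% and 17.4% of phospho-Ser2 regions were shared (SHP-1 WT, then SHP-1 KO). With downstream regions counted in the gene body, distal regions were 4.08% of RPB1 regions in SHP-1 KO cells, and 0% (SHP-1 WT) and 2.90% (SHP-1 KO) of phospho-Ser2 regions. The C1R RPB1 ratio of highest fold enrichment with promoter regions alone was 1.25 against 0.545, the one change of direction by over 1.5-fold. Smaller changes of direction occurred too, such as that of C4BPA for RPB1, from 0.939 to 1.37 with regions from 3 kb upstream to the gene end. Except for covered length on the MANE Select transcript, shares over all genes or regions are not given for these settings. The counts and percentages here thus describe the complement genes alone and cannot be set against the whole lists. Lower counts with fewer regions follow from the limits themselves. Otherwise the cause was not tested. Depth, unknown here, limits which weak regions are called. No paired analysis was possible because each group holds 1 library.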
